A study of Homo sapiens with 6 samples.

Results

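The 60 genes described here encode proteins that make ribosomes in the nucleolus, among them RNA polymerase I with its factors. They were taken from the expression table by symbol, and all 60 had a mean of at least 1 CPM (reads scaled to a common library size) over the 6 libraries. The table held 13439 genes, of which 11069 passed the same minimum and were tested. The lowest member, TAF1C, averaged 17.1 CPM with AIL and 17.7 CPM with DMSO, so no member lay near the minimum.

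RNA polymerase I copies the ribosomal DNA into a long precursor RNA inside the nucleolus. Small nucleolar ribonucleoproteins (snoRNPs) modify nucleotides of this precursor, while the small-subunit processome and the large-subunit assembly factors cut, fold and load it with ribosomal proteins. The genes of these factors are controlled by growth signals and are among the known targets of the MYC transcription factor, and the output of the pathway sets how many ribosomes a growing tumour cell has.

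The AIL group was 3 libraries of cells labelled Saos-2, an established human osteosarcoma line, kept for 24 h in 0.20 µM AIL, which is ailanthone, a quassinoid of plant origin. The reference was 3 libraries of the same cells kept for the same time in the solvent DMSO. For all 6 libraries the labels give 10% serum, 1 µg of RNA and an RNA integrity number of at least 8.0. The study asked which pathways AIL alters in this line. The labels speak of biological replicates without saying how cultures were separated, so p-values measure the spread between these 6 libraries of 1 line, which may be technical.

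Scaled depth, read from the spacing of low values, was 35910000 to 38050000 reads with AIL and 32540000 to 35830000 reads with DMSO. Of 10 osteoblast markers, 4 had values: RUNX2 lay at 4.36 to 5.04 CPM over the 6 libraries, but SPP1, SPARC and BGLAP were at or under 0.28 CPM. The other 6 were looked up by symbol and had no values. The name of the line is therefore used here as the label gives it, without support from those 3 markers. Of 8 markers of other cell types, 2 had values: CDH5 stayed at or under 0.12 CPM, and CD68, also a lysosomal gene, lay at 2.48 to 3.26 CPM with AIL and 0.73 to 0.79 CPM with DMSO. As a sign of RNA quality, transcripts of the mitochondrial genome were looked at, of which 10 of 13 were lower with AIL and 0 higher (median log2 difference -0.20). Their part in the results was not tested. In such bulk RNA, fewer cells making a transcript and less transcript per cell cannot be told apart.

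With AIL, 33 of the 60 genes rose, 7 fell and 20 did not pass the test (limma on log2(CPM + 1), called at a Benjamini-Hochberg adjusted p under 0.05 over all tested genes). Over all tested genes, 28.2% were called higher and 25.9% lower (54.1% in either direction), so the share called higher among these genes (55.0%) lay above the background and the share called lower (11.7%) below it. The median log2 difference, AIL minus DMSO, was 0.08, against 0.01 for all tested genes, and the range ran from -0.17 to 0.44. Changes were thus small: the largest, RRP9, amounted to 36.3% more CPM. The 2 groups of libraries did not overlap for 45 of the 60 genes, against 60.1% of all tested genes. Modification genes had the highest median of the 4 steps (0.15), followed by large-subunit processing (0.09), small-subunit processing (0.07) and transcription (0.03). This order depended on the processing: with a trend fitted to GC content, transcript length and abundance removed, the medians were 0.13 for both large-subunit and small-subunit processing, 0.11 for modification and 0.10 for transcription. The differences between steps were not tested.

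**Figure D1:**
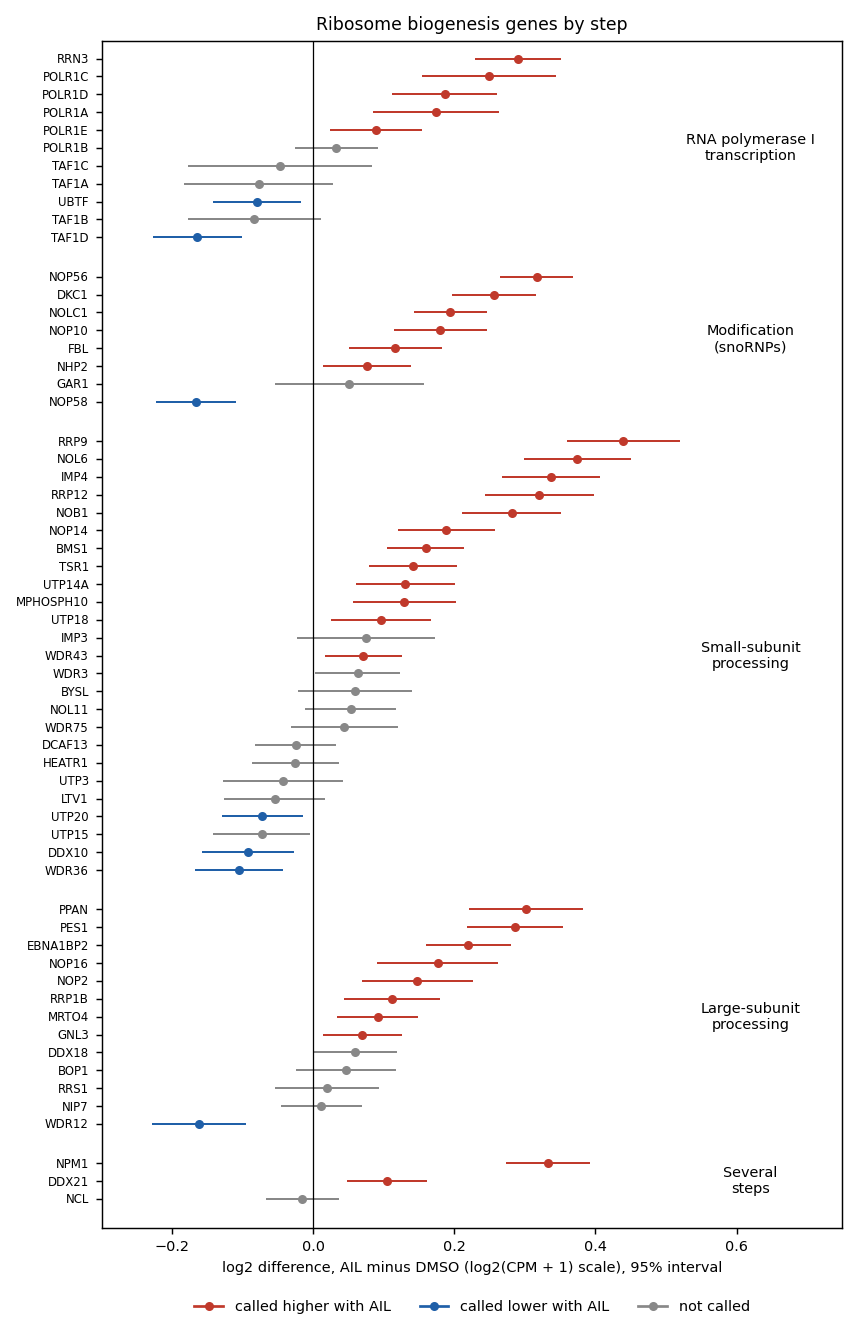
Log2 difference between AIL and DMSO libraries for each of the 60 genes, grouped by step and sorted within it, with 95% intervals from limma and colour by call. Each step holds genes called higher, and every step except the 3 genes of several steps also holds genes called lower, with RRP9 at the top (0.44) and NOP58 at the bottom (-0.17).

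In the transcription step, 5 of 11 genes rose, 2 fell and 4 did not pass. Those that rose were the initiation factor RRN3 and the polymerase subunits POLR1A, POLR1C, POLR1D and POLR1E, and those that fell were TAF1D and UBTF, which act at the promoter. RRN3 encodes the factor that makes the polymerase competent to start. It had 163.2, 155.0 and 161.9 CPM in the AIL libraries, against 130.6, 129.1 and 132.3 CPM in the DMSO libraries, and the groups did not overlap. The log2 difference was 0.29 (SE 0.0283, limma adjusted p = 1.86e-07), though 26.3% of the 50-base words of RRN3 transcripts also occur in other annotated genes, mainly its copy RRN3P2.

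Of the polymerase subunits, POLR1C and POLR1D belong to RNA polymerases I and III alike. POLR1C had 46.5, 41.9 and 44.2 CPM with AIL, against 35.3, 37.8 and 38.0 CPM with DMSO (log2 difference 0.25, limma adjusted p = 1.42e-04). POLR1D had 67.6, 68.0 and 70.7 CPM with AIL, against 58.4, 61.7 and 60.9 CPM with DMSO (0.19, limma adjusted p = 1.94e-04). For both genes every AIL library lay above every DMSO library.

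POLR1A, the largest and catalytic subunit, had 115.0, 118.8 and 104.7 CPM with AIL, against 95.0, 101.6 and 102.8 CPM with DMSO. Its lowest AIL library was just above its highest DMSO library, and the log2 difference was 0.17 (SE 0.0416, limma adjusted p = 0.00186). POLR1E, a subunit of the polymerase I heterodimer, rose less, to 87.2 ± 1.59 CPM with AIL, against 81.9 ± 1.11 CPM with DMSO (SD, n = 3 each, limma adjusted p = 0.0193). The POLR1E call was lost without AIL replicate 1 or without DMSO replicate 2 (limma adjusted p = 0.0839 and 0.0895). The second largest subunit POLR1B averaged 130.9 ± 2.34 CPM with AIL and 128.0 ± 0.797 CPM with DMSO, its groups overlapped, and its difference had a 95% interval of -0.03 to 0.09 (limma adjusted p = 0.330). With a trend fitted to GC content, transcript length and abundance removed, POLR1B was called higher (0.10, limma adjusted p = 0.00530).

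Selectivity factor SL1, which brings the polymerase to the ribosomal promoter, contains the 4 TAF1 proteins tested here, and all 4 had negative differences. TAF1D had 203.4, 196.1 and 208.3 CPM with AIL, against 222.8, 224.4 and 234.2 CPM with DMSO, without overlap. It fell (log2 difference -0.16, SE 0.0292, limma adjusted p = 1.36e-04), and the other 3 did not pass. TAF1B averaged 29.7 ± 0.895 CPM with AIL and 31.5 ± 1.23 CPM with DMSO, and TAF1A averaged 22.3 ± 0.410 CPM with AIL and 23.6 ± 1.30 CPM with DMSO (limma adjusted p = 0.120 and 0.197). TAF1B was called lower with the same trend removed (-0.12, limma adjusted p = 0.0336). TAF1C had 17.7, 17.8 and 15.8 CPM with AIL, against 18.3, 18.4 and 16.3 CPM with DMSO, and its interval of -0.18 to 0.08 was the widest of the step. UBTF, the upstream binding factor that keeps ribosomal DNA open, had 141.7, 145.7 and 136.6 CPM with AIL, against 149.1, 150.3 and 148.7 CPM with DMSO (log2 difference -0.08, limma adjusted p = 0.0269). That call was lost without an intensity trend, with quantile normalization, with the length and GC trend removed, and without any 1 of AIL replicates 1 and 3 or of the DMSO replicates.

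**Figure D2:**
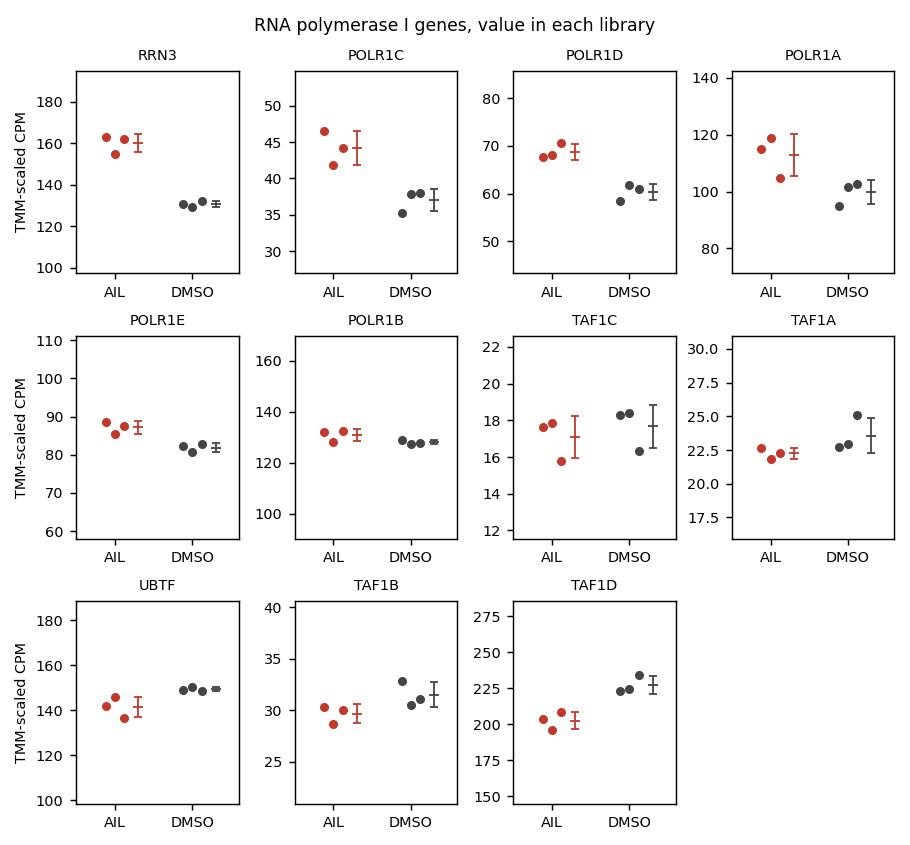
CPM of the 11 RNA polymerase I genes in each AIL library (left) and DMSO library (right), with the mean and SD beside the points. Each panel has its own axis that does not start at 0 and spans the same share of its level. RRN3 and POLR1C stand clearly higher with AIL, and TAF1D lower (202.6 against 227.1 CPM on average).

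The modification step had 6 of 8 genes higher and 1 lower. Box C/D snoRNPs guide methylation of ribosomal RNA and hold the paired scaffold proteins NOP56 and NOP58 with the methyltransferase fibrillarin (FBL). NOP56 had 445.6, 439.6 and 444.5 CPM with AIL, against 360.6, 350.1 and 356.4 CPM with DMSO, a rise of 24.6% (log2 difference 0.32, SE 0.0239, limma adjusted p = 8.82e-09). NOP58 had 156.1, 154.6 and 157.7 CPM with AIL, against 173.0, 175.2 and 177.9 CPM with DMSO, and fell by 10.9% (log2 difference -0.17, SE 0.0260, limma adjusted p = 3.87e-05). Both genes were separated completely by treatment, in opposite directions. FBL averaged 90.8 ± 1.24 CPM with AIL and 83.7 ± 2.05 CPM with DMSO (SD, n = 3 each, limma adjusted p = 0.00386).

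The NOP56 to NOP58 ratio shows this divergence within each library. On the log2(CPM + 1) scale it averaged 1.499 ± 0.00918 with AIL and 1.016 ± 0.0340 with DMSO (SD), with no overlap, so the ratio was higher by 0.48. An exact two-sided permutation test over the 6 libraries gave p = 0.1, the smallest that 3 against 3 allow, and 0.1 after adjustment over the 6 pairs compared. These pairs were chosen after their values were seen. Because NOP56 and NOP58 were each separated completely in opposite directions, that p was fixed in advance and adds no support.

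Box H/ACA snoRNPs guide pseudouridylation and hold 4 core proteins, of which 3 rose. DKC1, the pseudouridine synthase dyskerin, had 219.4, 218.4 and 218.0 CPM with AIL, against 185.0, 176.5 and 187.4 CPM with DMSO (log2 difference 0.26, SE 0.0275, limma adjusted p = 5.76e-07). NOP10, a small core protein, had 130.2, 122.4 and 130.1 CPM with AIL, against 112.0, 113.7 and 111.5 CPM with DMSO (0.18, limma adjusted p = 8.22e-05). NHP2 rose to 122.1 ± 3.25 CPM with AIL, against 115.7 ± 1.06 CPM with DMSO (limma adjusted p = 0.0329), but 49.4% of its 50-base words occur in other genes and the call was lost without AIL replicate 1 or any 1 DMSO library, without an intensity trend and with the length and GC trend removed. GAR1 averaged 22.9 ± 0.661 CPM with AIL and 22.1 ± 1.13 CPM with DMSO, with overlapping groups (95% interval of the difference -0.05 to 0.16). NOLC1, the chaperone that carries snoRNPs between the nucleolus and Cajal bodies, had 307.9, 310.8 and 309.8 CPM with AIL, against 270.7, 267.3 and 273.0 CPM with DMSO (0.19, limma adjusted p = 2.82e-06).

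**Figure D3:**
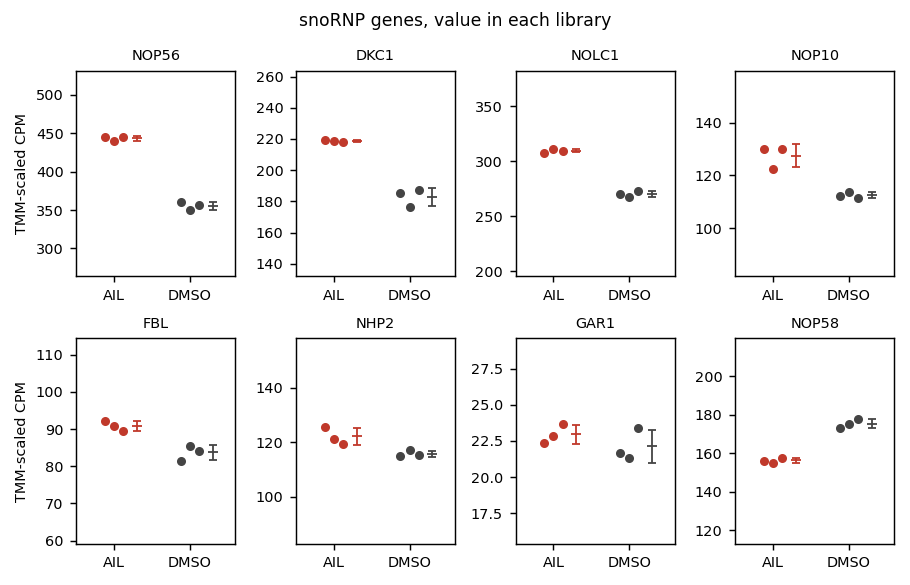
CPM of the 8 snoRNP genes in each AIL library (left) and DMSO library (right), with the mean and SD beside the points. Each panel has its own axis that does not start at 0 and spans the same share of its level. NOP56 and DKC1 lie higher with AIL and NOP58 lower, while the groups of GAR1 overlap.

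Of 25 genes of small-subunit processing, 12 rose, 3 fell and 10 did not pass. RRP9, a protein specific to the U3 snoRNP that holds the early precursor, had 85.5, 84.7 and 78.0 CPM with AIL, against 60.2, 62.2 and 59.6 CPM with DMSO (log2 difference 0.44, SE 0.0373, limma adjusted p = 3.47e-08). NOL6, a large scaffold of the processome, had 124.9, 128.1 and 117.0 CPM with AIL, against 96.8, 91.6 and 96.3 CPM with DMSO (0.37, limma adjusted p = 1.18e-07). IMP4, which pairs U3 RNA with the precursor, had 134.3, 131.0 and 123.7 CPM with AIL, against 104.0, 102.6 and 100.5 CPM with DMSO (0.34, limma adjusted p = 1.54e-07). In all 3 genes the groups were far apart, and AIL replicate 3 was the lowest of the AIL libraries.

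IMP4 acts in a complex with IMP3 and MPHOSPH10. MPHOSPH10 rose to 57.8 ± 1.21 CPM with AIL, against 52.8 ± 0.765 CPM with DMSO (log2 difference 0.13). IMP3 averaged 51.6 ± 3.49 CPM with AIL and 48.9 ± 2.10 CPM with DMSO and did not pass (limma adjusted p = 0.176), with 67.6% of its words shared with other genes. Without AIL replicate 3 it was called higher (limma adjusted p = 0.0198).

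Late factors of the pre-40S particle were higher in 3 of 5. RRP12, which helps export the particle, had 89.6, 99.3 and 92.2 CPM with AIL, against 74.9, 74.3 and 75.1 CPM with DMSO (log2 difference 0.32, limma adjusted p = 8.95e-07). NOB1, the nuclease that makes the final 3' end of 18S RNA, had 94.0, 93.3 and 87.8 CPM with AIL, against 74.9, 75.3 and 75.6 CPM with DMSO (0.28, limma adjusted p = 1.32e-06). TSR1, a GTPase-like assembly factor, rose by 0.14 on the log2 scale. Of their 50-base words, 30.15% for NOB1 and 20.21% for TSR1 also occur in other genes. BYSL and LTV1 did not pass, with differences of 0.06 and -0.05.

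Other risers of the processome were NOP14, BMS1, UTP14A, UTP18 and WDR43, by 0.19, 0.16, 0.13, 0.10 and 0.07 on the log2 scale. BMS1, a GTPase of the processome, had 200.9, 199.8 and 203.0 CPM with AIL, against 177.9, 180.8 and 181.4 CPM with DMSO (limma adjusted p = 4.10e-05), and 11.98% of its words lie in other genes. NOP14, a scaffold next to it, averaged 87.1 ± 2.87 CPM with AIL and 76.3 ± 0.836 CPM with DMSO. Words shared with other genes made up 12.44% for NOP14 and 11.38% for UTP14A. The call of UTP18 was lost without an intensity trend and without AIL replicate 1, DMSO replicate 1 or DMSO replicate 2.

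The 3 genes that fell did so by small amounts. WDR36, a WD40 protein of the UTP-B complex, had 164.5, 164.6 and 173.4 CPM with AIL, against 177.8, 178.8 and 183.9 CPM with DMSO (log2 difference -0.11, limma adjusted p = 0.00496). The helicase DDX10 averaged 76.7 ± 1.09 CPM with AIL and 81.9 ± 1.41 CPM with DMSO (-0.09, limma adjusted p = 0.0163). UTP20, a long repeat scaffold, had 266.0, 253.2 and 265.2 CPM with AIL, against 273.4, 272.7 and 278.5 CPM with DMSO (-0.07, limma adjusted p = 0.0294). After removal of a trend fitted to GC content, transcript length and abundance, none of the 3 was called (limma adjusted p = 0.389, 0.562 and 0.376), and small-subunit processing had 14 genes higher and 0 lower. The DDX10 call was also lost without AIL replicate 1, DMSO replicate 1 or DMSO replicate 3, and the UTP20 call without AIL replicate 2, any 1 DMSO library or the intensity trend. The WDR36 call was lost with quantile normalization (limma adjusted p = 0.0720).

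The t-UTP proteins bind the nascent precursor and tie processing to transcription, and 1 of 5 passed the test. WDR43 was that gene, with 286.8, 278.6 and 290.0 CPM with AIL, against 271.1, 270.3 and 272.7 CPM with DMSO (limma adjusted p = 0.0236), a call lost without an intensity trend and without AIL replicate 1, AIL replicate 3, DMSO replicate 1 or DMSO replicate 2. HEATR1 averaged 211.2 ± 4.48 CPM with AIL and 215.1 ± 6.65 CPM with DMSO, and neither this gene nor WDR75 and NOL11 passed. WDR75 averaged 132.6 ± 7.14 CPM with AIL and 128.5 ± 3.01 CPM with DMSO, and NOL11 averaged 158.6 ± 5.81 CPM with AIL and 152.7 ± 2.12 CPM with DMSO. Without AIL replicate 2, WDR75 and NOL11 were called higher (limma adjusted p = 0.0274 and 0.0231). NOL11 was also called higher with quantile normalization (0.08, limma adjusted p = 0.0277) and with the trend removed (0.13, limma adjusted p = 9.76e-04). UTP15 had 70.4, 67.2 and 70.2 CPM with AIL, below 73.2, 72.3 and 73.2 CPM with DMSO, but missed the threshold (limma adjusted p = 0.0624, and 0.0326 with the replicate number as a block). UTP15 was also called lower without AIL replicate 3 and with median-of-ratios scaling (limma adjusted p = 0.0331 and 0.0395), but its difference was 0.0042 with the trend removed (limma adjusted p = 0.923). WDR3, of the UTP-B complex, missed the threshold too (0.06, limma adjusted p = 0.0659), but passed with the block (0.0200), without AIL replicate 2 (0.0228), with quantile normalization (0.10, limma adjusted p = 0.00285) and with the trend removed (0.13, limma adjusted p = 7.45e-04). UTP3 and DCAF13 had differences of -0.04 and -0.02 and did not pass.

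Of 13 genes of large-subunit processing, 8 rose, 1 fell and 4 did not pass. PES1, BOP1 and WDR12 form the PeBoW complex, needed to cut the spacer before 28S RNA, and went 3 ways. PES1 had 185.5, 186.9 and 171.7 CPM with AIL, against 148.6, 147.7 and 149.2 CPM with DMSO (log2 difference 0.29, SE 0.0315, limma adjusted p = 7.70e-07). BOP1 had 201.8, 198.2 and 183.2 CPM with AIL, against 189.2, 190.2 and 184.6 CPM with DMSO, with overlap (95% interval -0.02 to 0.12), and was called higher without AIL replicate 3 (limma adjusted p = 0.00547). WDR12 had 90.9, 89.2 and 93.7 CPM with AIL, against 100.6, 104.9 and 101.0 CPM with DMSO, and fell (-0.16, SE 0.0309, limma adjusted p = 2.84e-04). The log2 ratio of PES1 to WDR12 was 1.02, 1.06 and 0.87 with AIL, against 0.56, 0.49 and 0.56 with DMSO (exact permutation p = 0.1, the smallest possible). As PES1 and WDR12 were each separated by treatment in opposite directions, this p too was fixed in advance.

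PPAN, a factor of early large-subunit assembly, had 56.8, 59.7 and 55.6 CPM with AIL, against 47.8, 45.9 and 45.4 CPM with DMSO (log2 difference 0.30, limma adjusted p = 3.40e-06). Since 82.8% of its words also lie in the readthrough gene PPAN-P2RY11, reads of both cannot be separated. EBNA1BP2, a nucleolar scaffold, had 292.9, 288.9 and 282.5 CPM with AIL, against 242.9, 242.1 and 256.9 CPM with DMSO (0.22, limma adjusted p = 4.41e-06). NOP16 rose to 65.8 ± 3.52 CPM with AIL, against 58.1 ± 1.83 CPM with DMSO (0.18, limma adjusted p = 0.00120). Words shared with other genes made up 12.14% for EBNA1BP2 and 17.26% for NOP16.

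NOP2, a methyltransferase of 28S RNA, had 101.7, 101.4 and 92.0 CPM with AIL, against 87.4, 90.4 and 88.1 CPM with DMSO (log2 difference 0.15, limma adjusted p = 0.00258), and 68.0% of its words are shared. RRP1B rose to 141.2 ± 3.28 CPM with AIL, against 130.6 ± 5.18 CPM with DMSO (0.11, limma adjusted p = 0.00667). MRTO4 and the GTPase gene GNL3, or nucleostemin, rose by 0.09 and 0.07 on the log2 scale, and the call of GNL3 was lost without any 1 library except AIL replicate 2, without an intensity trend and with median-of-ratios scaling, and that of MRTO4 without DMSO replicate 2. The helicase DDX18 had a difference of 0.06 that did not pass (limma adjusted p = 0.0697). It passed with the replicate block (0.0220), without AIL replicate 2 (0.0430), without DMSO replicate 3 (0.0431), with quantile normalization (0.08, limma adjusted p = 0.0116) and with the trend removed (0.14, limma adjusted p = 2.50e-04). RRS1 and NIP7 had differences of 0.02 and 0.01.

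3 abundant nucleolar proteins act at several steps. NPM1, a histone chaperone and scaffold of the outer nucleolus, had 2814.9, 2723.7 and 2849.2 CPM with AIL, against 2210.7, 2177.2 and 2269.3 CPM with DMSO. It rose by 26.0% (log2 difference 0.33, SE 0.0274, limma adjusted p = 2.41e-08), while 29.1% of its words occur in other genes, most often NPM1P27, and its difference was 0.18 with the length, GC and abundance trend removed. DDX21, a helicase of the polymerase I and snoRNA steps, averaged 791.9 ± 10.9 CPM with AIL and 736.7 ± 21.1 CPM with DMSO (0.10, limma adjusted p = 0.00260), but its difference was -0.0058 after quantile normalization. NCL, or nucleolin, had 1153.4, 1162.8 and 1154.6 CPM with AIL, against 1152.2, 1169.1 and 1186.9 CPM with DMSO, with overlapping groups and a 95% interval of -0.07 to 0.03 (limma adjusted p = 0.610). NCL was called lower after quantile normalization (-0.16) and with the trend removed (-0.06).

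A longer list of 128 other ribosome biogenesis genes had 66 higher and 16 lower, with a median log2 difference of 0.10. The shares were 51.6% and 12.5%, against 28.2% and 25.9% of all tested genes. With the trend removed, 69 of the 119 that could be fitted were higher and 10 lower. Of 51 further large-subunit factors, 31 rose and 6 fell, against 34 higher and 2 lower of 48 with the trend removed. PELP1, part of the complex that releases the large-subunit precursor, rose to 37.5 ± 2.79 CPM with AIL, against 23.1 ± 0.367 CPM with DMSO (0.67). NIFK, listed as MKI67IP, rose to 161.4 ± 6.29 CPM with AIL, against 102.4 ± 2.66 CPM with DMSO (0.65), and the kinase gene NOL9 rose by 0.50. The helicase gene DDX24 fell by 0.21, MDN1 by 0.14 and EFL1 (EFTUD1) by 0.12.

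Of 31 further small-subunit factors, 13 rose and 5 fell. NOC4L, TSR2 and RRP7A rose by 0.40, 0.33 and 0.30, and UTP11 (UTP11L), RCL1 and NOP9 fell by 0.28, 0.22 and 0.14. Among 18 further modification genes, 10 rose and 1 fell. EMG1, a methyltransferase of 18S RNA, rose to 70.3 ± 2.21 CPM with AIL, against 46.7 ± 1.77 CPM with DMSO (0.58), and the box C/D protein SNU13 (NHP2L1) rose by 0.36. NAF1, an assembly factor of box H/ACA particles, fell by 0.25. Of 18 genes of the RNA exosome and of trimming, 6 rose and 1 fell, with EXOSC1 higher by 0.43 and EXOSC2 lower (-0.15). That is 33.3% higher, near the 28.2% of all tested genes, and 5.56% lower, against 25.9%.

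The other 10 genes of the polymerase I machinery divided into 6 higher and 3 lower. The share called higher (60%) lay above the 28.2% of all tested genes, and the share called lower (30%) near their 25.9%. POLR2L, a small subunit shared by RNA polymerases I, II and III, rose to 221.0 ± 14.6 CPM with AIL, against 170.6 ± 4.10 CPM with DMSO (0.37). POLR2F rose by 0.19, whereas the shared subunit POLR2H fell by 0.18. POLR1G (CD3EAP), the partner of POLR1E in the heterodimer, rose by 0.11, and the stalk subunit POLR1F (TWISTNB) fell by 0.13. With the trend in length, GC content and abundance removed, 4 of 9 were called higher and 1 lower. The transcript release factor gene PTRF, also known for caveolae, had 430.1, 442.1 and 404.5 CPM with AIL, against 490.6, 489.6 and 488.6 CPM with DMSO, and fell by 0.20.

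**Figure D4:**
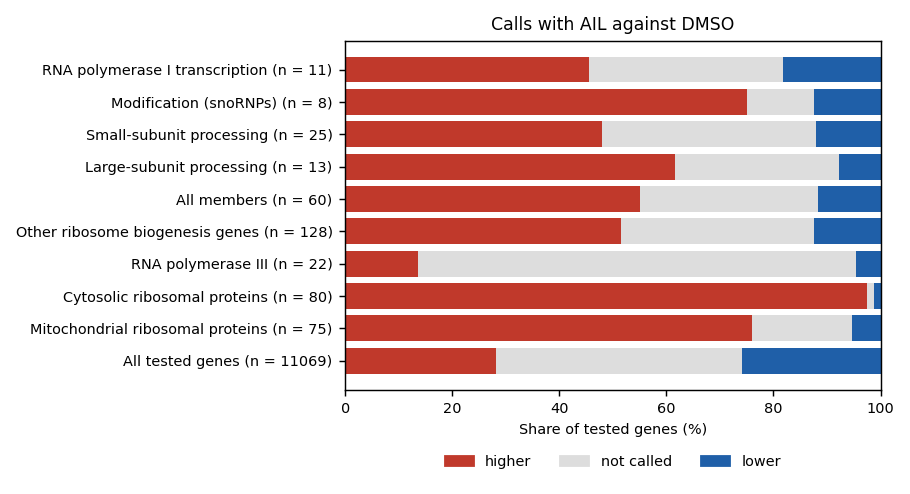
Share of tested genes called higher (red), not called (grey) and lower (blue) with AIL for the 4 steps, all 60 genes, other ribosome biogenesis genes, RNA polymerase III, ribosomal proteins and all tested genes. Cytosolic ribosomal protein genes are called higher in 97.5% and mitochondrial ones in 76.0%, against 55.0% of the 60 genes and 28.2% of all tested genes.

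Genes of cytosolic ribosomal proteins, which the same pathway assembles, and of mitochondrial ribosomal proteins were called higher more often than the 60 genes. Of 80 cytosolic ribosomal protein genes and paralogs 78 rose (median log2 difference 0.28), and of 75 mitochondrial ribosomal protein genes 57 rose (median 0.20), against a median of 0.08 for the 60 genes. With the trend removed the medians lay closer together, at 0.18 (65 of 79 higher), 0.17 (52 of 75 higher) and 0.13. The difference between these lists was not tested.

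The response of the 60 genes varied with the base composition of their transcripts. Of the 20 genes with the lowest GC content (37.3 to 43.2%), 6 rose and 6 fell (median log2 difference -0.03). Of the 20 in the middle (43.6 to 51.8%), 13 rose and 0 fell (median 0.10). Of the 20 with the highest GC content (52.5 to 65.2%), 14 rose and 1, UBTF, fell (median 0.16). All tested genes in the same 3 ranges had medians of -0.03, 0.01 and 0.03. Of them, 22.3, 28.1 and 32.0% were called higher, and 33.7, 28.1 and 19.2% lower. In the lowest range the 60 genes thus lay near all tested genes, with 30% higher and 30% lower. In the middle and highest ranges they were called higher more often (65 and 70%) and lower less often (0 and 5%). Spearman's rho between GC content and log2 difference was 0.50 across the 60 genes and 0.14 across 10506 tested genes with a known GC content, as a description across genes that share libraries. With the trend over length, GC content and abundance removed, 36 of the 60 genes were called higher and 5 lower, and the median was 0.13.

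**Figure D5:**
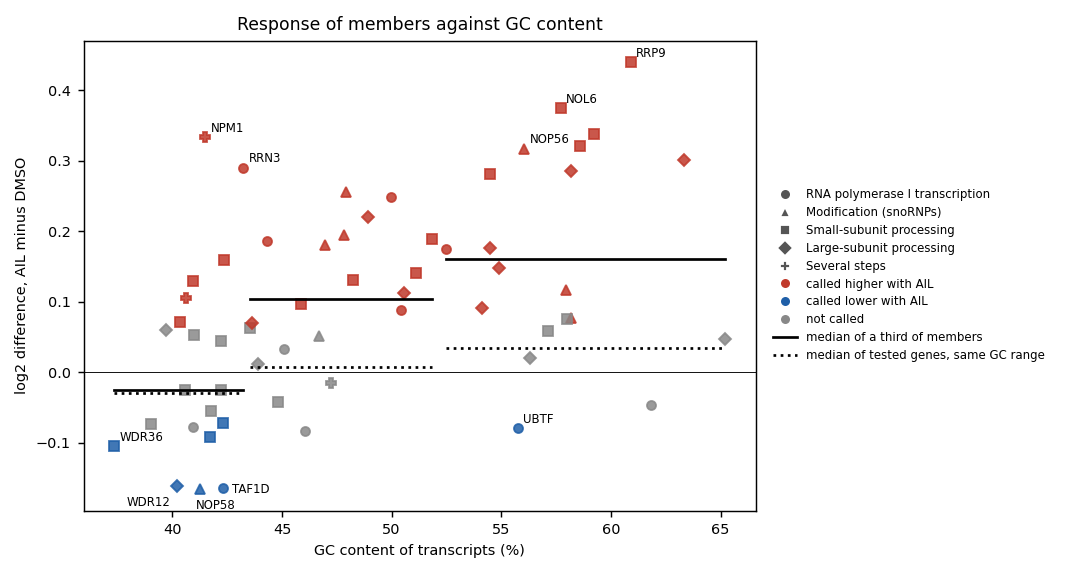
Log2 difference between AIL and DMSO against the GC content of GENCODE v29 transcripts for the 60 genes, with shape for the step and colour for the call. Solid lines are medians of the 20 genes with low, middle and high GC content (-0.03, 0.10 and 0.16), and dotted lines are medians of all tested genes in the same ranges.

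Promoter windows from RefSeq (GRCh38.p14, 250 bases before to 50 after each annotated start) were found for 50 of the 60 genes. The E-box CACGTG, the sequence that MYC and its partner MAX are known to bind and that reads the same on both strands, was searched because the genes of this pathway are known MYC targets. It lay in a window of 19 of the 50 genes (38.0%), against 12.8% of 8486 tested genes with windows and 8.77% of all 27305 genes with windows. Some genes have more than 1 window, and a gene counted once if any window held the letters. Among the genes called higher it was present in 15 of 28, among those called lower in 1 of 6 and among those not called in 3 of 16. Over all tested genes, 34.6% of those with the E-box and 27.6% of those without it were called higher.

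The other motifs searched, on both strands, were CCGGAAGT, bound by ETS factors, and the palindromic NRF1 motif, and neither contains the E-box. CCGGAAGT was present in 22.0% of the 50 genes, against 11.1% of tested genes and 4.95% of all genes with windows. It lay in 21.4% of the genes called higher, 0 of 6 called lower and 31.2% of those not called. The NRF1 motif was present in 8.00% of the 50 genes, against 2.91% of tested genes and 1.52% of all genes with windows. A match describes the letters only.

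The windows of the 4 genes with an E-box and the highest differences are shown with the E-box in capitals, together with that of UTP20, the gene that fell and holds an E-box, and that of TAF1D, which fell and holds none. With the start site as 0, the E-box begins at 13 in NOL6 and PES1, at -5 in RRP9 and at -10 in UTP20, and IMP4 holds 2.
RRP9 promoter (GRCh38.p14, chr3:51941855-51942154, minus strand): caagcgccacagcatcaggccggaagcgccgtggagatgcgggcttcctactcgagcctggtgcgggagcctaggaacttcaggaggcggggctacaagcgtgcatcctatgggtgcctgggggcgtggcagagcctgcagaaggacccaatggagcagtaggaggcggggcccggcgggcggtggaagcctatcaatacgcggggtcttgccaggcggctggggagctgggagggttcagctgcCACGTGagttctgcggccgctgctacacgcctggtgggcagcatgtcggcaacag
NOL6 promoter (GRCh38.p14, chr9:33473875-33474174, minus strand): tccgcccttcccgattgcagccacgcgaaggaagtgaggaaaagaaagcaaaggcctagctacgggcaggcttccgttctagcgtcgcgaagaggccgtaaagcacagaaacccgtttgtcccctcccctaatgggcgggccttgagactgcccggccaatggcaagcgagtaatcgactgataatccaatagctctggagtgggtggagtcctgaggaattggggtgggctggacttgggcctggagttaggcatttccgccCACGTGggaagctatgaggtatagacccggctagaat
IMP4 promoter (GRCh38.p14, chr2:130342647-130342946, plus strand): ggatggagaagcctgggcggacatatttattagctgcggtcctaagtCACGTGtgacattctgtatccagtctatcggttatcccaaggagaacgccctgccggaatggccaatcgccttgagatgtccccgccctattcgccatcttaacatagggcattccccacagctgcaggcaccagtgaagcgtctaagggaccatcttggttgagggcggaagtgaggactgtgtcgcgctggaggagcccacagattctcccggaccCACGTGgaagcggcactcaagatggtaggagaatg
PES1 promoter (GRCh38.p14, chr22:30591861-30592160, minus strand): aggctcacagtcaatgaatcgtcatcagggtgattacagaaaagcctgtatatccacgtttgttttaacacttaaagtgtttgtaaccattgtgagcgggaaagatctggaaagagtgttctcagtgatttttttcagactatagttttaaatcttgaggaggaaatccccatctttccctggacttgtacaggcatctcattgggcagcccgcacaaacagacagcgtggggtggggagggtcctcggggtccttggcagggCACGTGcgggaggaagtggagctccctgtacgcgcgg
UTP20 promoter (GRCh38.p14, chr12:101279855-101280154, plus strand): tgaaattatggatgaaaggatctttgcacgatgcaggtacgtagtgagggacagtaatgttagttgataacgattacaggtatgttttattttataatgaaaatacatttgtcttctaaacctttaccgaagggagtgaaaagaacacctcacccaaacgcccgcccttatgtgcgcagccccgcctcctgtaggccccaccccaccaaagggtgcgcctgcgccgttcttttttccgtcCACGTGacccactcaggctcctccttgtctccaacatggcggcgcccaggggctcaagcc
TAF1D promoter (GRCh38.p14, chr11:93741446-93741745, minus strand): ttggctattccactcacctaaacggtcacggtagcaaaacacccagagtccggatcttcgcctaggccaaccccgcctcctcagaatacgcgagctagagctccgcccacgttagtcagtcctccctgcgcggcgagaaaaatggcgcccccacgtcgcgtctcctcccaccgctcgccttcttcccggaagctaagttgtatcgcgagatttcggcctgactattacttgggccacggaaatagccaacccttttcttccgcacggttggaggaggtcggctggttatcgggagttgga

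Many genes of nucleolar proteins also carry snoRNA genes in their introns, which are spliced out with the host transcript. By GENCODE v29, 11 of the 60 genes contain snoRNA genes on the same strand. TAF1D contains 8, NOP56 and GNL3 5 each, NOP58 4, WDR43 and NCL 3 each, DKC1, TSR1 and PPAN 2 each, and POLR1C and NOL11 1 each. Of these hosts 7 rose and 2, TAF1D and NOP58, fell (median log2 difference 0.07), against 26 higher and 5 lower of the 49 other genes (median 0.09). With the trend removed, 8 hosts were higher and 3 lower (median 0.14), against 28 higher and 2 lower of the others (median 0.11). Of all 204 tested genes with snoRNA genes inside, 35.8% were called higher and 24.5% lower. The snoRNAs themselves were not analysed here.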

How the data were processed

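RNA-seq was made from 6 samples of cells labelled Saos-2. The authors deposited 1 table of TMM-normalized CPM, per the file name, with 2 decimals. RSEM and edgeR 3.8.5 are named in the submitters' processing notes without a role. The sources used here give no aligner, build, annotation or strand, so no gene coordinates are printed except of RefSeq windows, and overlapping, antisense or near-identical genes may share reads. Because TMM scaling centres on the bulk of genes, a global change in RNA per cell is invisible in these values.

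Depth was inferred from the value of 1 read (0.0263 to 0.0307 CPM), and 99.95 to 99.98% of the values used came within 0.2 reads of whole. Rounding left too few low values (51.1 to 80.5%) within 0.1 reads for a count test. The lowest member had about 597 reads on average in the DMSO libraries, a counting error of 4.09%. PCR reads are not independent molecules, so this covers counting error only.

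On log2(CPM + 1), limma 3.58.1 (R 4.3.3) compared AIL with DMSO two-sided, using an intensity trend, no covariate and a minimum mean of 1 CPM. Log2 differences are AIL minus DMSO on this scale, which understates changes of low genes. The fit was tested on simulated data with 200 changed genes. Shared words of 50 bases, transcript length and GC content come from GENCODE v29, and 10506 of the 11069 tested genes had the latter. The members, the lists and the steps were chosen with earlier results of these data known. Library values, or a mean with SD, were given for all genes of the transcription and modification steps. The same holds for the 6 called genes with the smallest p in each direction of the other steps. Of each further list, up to 3 such genes in each direction were named, many with the log2 difference only. Other genes, and the pairs for ratios, were named after their values were seen.

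Whether the labels' replicate numbers pair libraries was checked by correlating each library's deviation from its group mean. The same-numbered pairs gave 0.159, 0.133 and 0.129, the others -0.179 to 0.0210. With 3 libraries a group few matchings are possible, so these correlations cannot establish a pairing, which would come from the data alone. The main fit used no block, and a block by replicate number was run as an alternative. The alternatives were this block, pseudocounts of 0.1 and 5, no minimum mean or one of 5 CPM, no intensity trend, quantile or median-of-ratios scaling, each library left out, and a length, GC and abundance trend removed, which was added after the data were seen.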

Additional observations from a re-analysis of the deposited data

How the results depend on the processing

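The count of genes called higher among the 60 (33) stayed at 29 to 36 under the alternatives that kept all libraries, and ranged from 27 to 37 with 1 library left out. The count called lower (7) was 5 to 8 with all libraries and 4 to 7 with 1 left out. It fell to 4 without DMSO replicate 1 and to 4 without DMSO replicate 3. Calls of 26 higher and 3 lower genes (TAF1D, NOP58 and WDR12) were the same under every alternative run. DDX21 was the only called gene to change sign, at -0.0058 after quantile normalization (limma adjusted p = 0.820), and the cause was not tested. With the replicate block, 35 genes were called higher and 8 lower: UTP15, WDR3 and DDX18 were gained, and the block changed no other call of the 60. Counts over all tested genes and over the 160 other listed genes stayed within 1.5 times their values, but lower calls in single lists moved more with the length, GC and abundance trend removed. TMM-scaled depth gave a counting error of 4.09% for TAF1C at its mean DMSO depth, the gene with the fewest reads of the 60, so differences of a few percent rest on the spread of 3 libraries a group.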

Other observations

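RNA polymerase III transcribes 5S RNA and transfer RNAs and shares POLR1C and POLR1D with polymerase I. Of 22 genes of its own subunits and factors, 3 rose and 1 fell, with a median log2 difference of -0.0015. These shares, 13.6% higher and 4.55% lower, lay below the 28.2% and 25.9% of all tested genes. GTF3A, which is needed for 5S RNA, rose to 174.3 ± 2.13 CPM with AIL, against 147.3 ± 1.94 CPM with DMSO (SD, n = 3 each, log2 difference 0.24). GTF3C6 and POLR3K rose by 0.16 and 0.15, and GTF3C3 was lower (-0.08).

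In the MYC and MAX network, 2 of 10 genes rose and 1 fell. These counts are 20% higher and 10% lower, below the 28.2% and 25.9% of all tested genes. MYC averaged 92.7 ± 2.31 CPM with AIL and 102.5 ± 1.46 CPM with DMSO (log2 difference -0.14, limma adjusted p = 6.48e-04). MNT, a MAX partner known as a repressor, rose to 5.42 ± 0.577 CPM with AIL, against 3.82 ± 0.182 CPM with DMSO (0.41), and MLX rose by 0.15. With the length, GC and abundance trend removed, 2 of the 10 were called higher and 3 lower.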
